A study of Mus musculus with 12 samples.

Results

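Primordial germ cells are the embryonic founders of sperm and eggs, set aside from the epiblast around the time of gastrulation under BMP and WNT signals. In the mouse, the transcriptional regulators *Prdm1* (BLIMP1), *Prdm14* and *Tfap2c* (AP2γ) specify them, repressing the somatic programme and restoring a part of the pluripotency network. The RNA-binding proteins NANOS3 and DND1 then keep the cells alive, the receptor KIT carries the signal for their survival and migration, and the membrane protein IFITM3 (fragilis) is one of their earliest surface markers. These 7 genes were examined in gastruloids, in which mouse embryonic stem cells aggregate and build an elongating axis in culture, and all 7 were found by symbol among the 55141 genes of the count table.

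Gastruloids were made from 300 mouse embryonic stem cells of 129/SVEV background, and received a pulse of 3 µM CHIR99021, an inhibitor of GSK3 that activates WNT signalling, from 48 h to 72 h after seeding. Embedding was at 72 h (called early here) or 96 h (late), in a dextran and polyethylene glycol gel whose concentration was either 1.0 mM or the denser 1.5 mM, and the gastruloids were released from it with dextranase at 120 h, and collected, so that every group was of the same age. Early embedding also meant a longer stay in the gel, and the moment and the duration of embedding cannot be told apart. Each of the 4 groups had 3 libraries of poly-A RNA, each library from about 30 pooled gastruloids, and the study asked how far embedding time and gel density change gene expression. The methods describe the replicates as biological, and p-values measure the spread between these libraries. All groups came from a single stem cell background, and gastruloids outside gels were not analysed here.

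The 12 libraries held 23011791 to 27609422 counts, of which 1.68% to 3.02% fell on mitochondrial genes. A single gene, *CT010467.1*, took 0.207% to 6.12% of the counts, the most in replicate 1 embedded early in 1.5 mM gels. Levels are given as CPM, the counts scaled to a common library size with TMM factors. Differences are log2 fold changes from edgeR's quasi-likelihood test with Benjamini-Hochberg adjustment over all genes tested, and a gene was called at an adjusted p below 0.05. A positive log2 fold change stands for more RNA with early embedding, or in the denser gel. In bulk RNA, fewer cells of a type and less RNA per cell cannot be told apart.

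The genes were compared per length on the FPKM scale, which divides fragments by transcript length and library size, over all 12 libraries. *Ifitm3* had the highest level, with a mean of 14.1 FPKM (range 12.0 to 19.5), followed by *Prdm1* with 8.52 FPKM (5.20 to 13.9) and *Kit* with 7.97 FPKM (6.16 to 10.0). The ranges of these neighbours overlapped. *Tfap2c* had a mean of 0.695 FPKM (0.221 to 1.44) and *Nanos3* of 0.376 FPKM (0.228 to 0.656), and these ranges overlapped too. *Prdm14* was lowest, with 0.0906 FPKM (0.0126 to 0.215), and every library had less of it than any library had of *Nanos3*. Ranked among the 26600 genes above 0 FPKM, *Ifitm3* was at place 4583, *Prdm1* at 6328, *Kit* at 6545, *Tfap2c* at 11886, *Nanos3* at 12914 and *Prdm14* at 15805. *Dnd1* was listed at 0 FPKM in 10 of the 12 libraries, although its counts were 68 to 133 in each of the 12, so its FPKM values were not used. Its CPM per kilobase of merged exons came to 1.78 ± 0.283 (SD, n = 12), against 6.20 ± 0.803 for *Kit*, 0.762 ± 0.294 for *Nanos3* and 0.716 ± 0.411 for *Tfap2c*. On this scale, computed here from the counts, *Nanos3* and *Tfap2c* change places.

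Between embedding times, *Prdm1* was called higher and *Tfap2c* lower after early embedding in each gel. The *Prdm1* call in 1.5 mM gels was lost under 7 of 18 alternative settings. The comparisons of gel density called none of the 7 genes. In 1.0 mM gels, 3 of the 7 genes were called between embedding times, *Prdm1* higher and *Prdm14* and *Tfap2c* lower after early embedding. *Prdm14*, at 1 or 2 reads in each early library, passed the filter on low counts only through the late libraries in which it was higher, and without it 2 of 6 were called. For comparison, 9.24% of all 15763 genes tested were called in these gels, 5.97% higher and 3.27% lower. In 1.5 mM gels, 2 of the 6 genes tested were called, *Prdm1* higher and *Tfap2c* lower, against 19.3% of 15683 genes, 10.4% higher and 8.98% lower. *Prdm14* did not pass the filter on low counts there. Across both gels, the same 3 genes as in 1.0 mM gels were called of 7, against a background of 31.1% of 16388 genes (16.2% higher and 14.8% lower). In that fit too, *Prdm14* passed the filter only through late libraries, and without it 2 of 6 were called. The median log2 fold change of the 7 genes in 1.0 mM gels was -0.13, beside -0.01 for all genes, and the other 4 genes lay between -0.21 and 0.08.

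**Figure D1:**
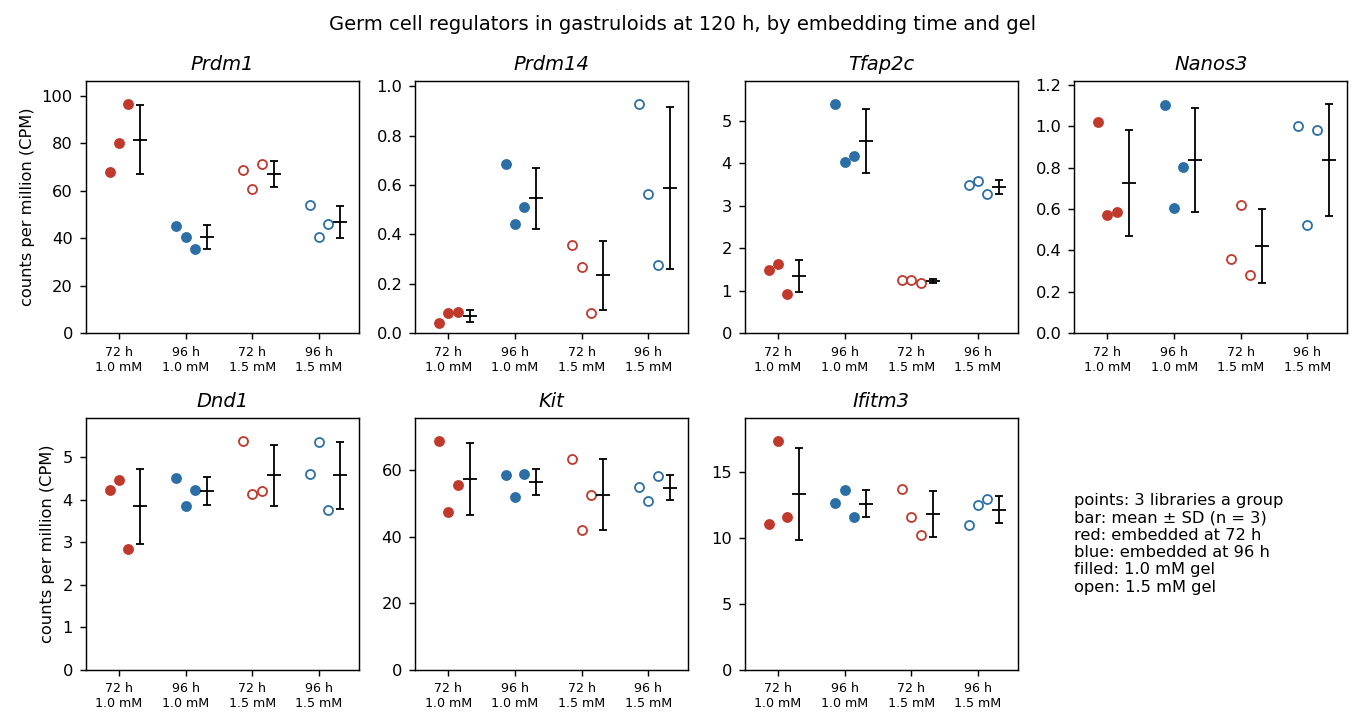
Levels of the 7 regulators in CPM (vertical axes, each starting at 0) in every library, by embedding time and gel (horizontal axes); points are libraries, and bars give the mean ± SD of 3. *Prdm1* stands higher in all 6 libraries embedded early (60.8 to 96.7 CPM) than in the 6 embedded late (35.6 to 53.9 CPM), *Tfap2c* does the opposite, and *Dnd1*, *Kit* and *Ifitm3* overlap between all groups.

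*Prdm1* encodes BLIMP1, a zinc finger repressor that starts germ cell fate and is also used by definitive endoderm and other embryonic tissues. It lies on the minus strand of chromosome 10 of mm10, from 44437177 to 44458748. In the 1.0 mM gels it stood at 67.8, 80.4 and 96.7 CPM after early embedding, and at 45.4, 40.5 and 35.6 CPM after late embedding. All 3 libraries embedded early were above all 3 embedded late. The log2 fold change was 1.01 (SE 0.131, 95% interval 0.72 to 1.29, edgeR adjusted p = 0.00104), a 2.01-fold higher level. The 1.5 mM libraries had 69.0, 60.8 and 71.3 CPM after early embedding, and 53.9, 40.3 and 46.2 CPM late. The groups again did not overlap, and the difference was about 0.52 on the log2 scale (SE 0.110, 95% interval 0.27 to 0.76, edgeR adjusted p = 0.0138). This call was lost without replicate 3 embedded early (adjusted p = 0.0527), without replicate 2 (0.0518) or replicate 3 (0.0568) embedded late, and in the 3 fits of log2 FPKM (0.0662 to 0.119). Across both gels the level was 74.3 ± 12.7 CPM (SD, n = 6) early and 43.7 ± 6.32 CPM (SD, n = 6) late, and the log2 difference was 0.76 (SE 0.111, edgeR adjusted p = 1.66e-04). The difference between its changes in the 2 gels was -0.48 on the log2 scale, with a 95% interval of -0.89 to -0.08 before adjustment (edgeR adjusted p = 0.953), and it was called only when the filter on low counts was dropped (-0.49, edgeR adjusted p = 0.0392).

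*Tfap2c* encodes AP2γ, which acts with BLIMP1 and PRDM14 in germ cells and is also made by pluripotent cells, trophoblast and surface ectoderm. It lies on the plus strand of chromosome 2, from 172549593 to 172558622. In 1.0 mM gels, 35, 40 and 22 reads were counted in the libraries embedded early and 142, 100 and 114 in those embedded late, or 1.48, 1.64 and 0.919 against 5.39, 4.03 and 4.16 CPM. Even the lowest of the late libraries was far above the highest of the early ones. The log2 fold change was -1.75 (SE 0.256, 95% interval -2.31 to -1.19, edgeR adjusted p = 0.00191), a level 3.36-fold lower after early embedding. The call was lost with limma on unfiltered log2(FPKM + 0.1), where the change was -1.55 (adjusted p = 0.0512). In the denser gel, counts of 28, 28 and 29 stood against 94, 89 and 83, and levels of 1.25, 1.24 and 1.17 CPM against 3.49, 3.58 and 3.26 CPM. The 3 libraries of each group lay close together and the groups did not overlap, and the log2 fold change was -1.5 (SE 0.194, 95% interval -1.93 to -1.06, edgeR adjusted p = 0.00279). Across both gels, the change was -1.63 (SE 0.155, edgeR adjusted p = 4.41e-06), from 3.99 ± 0.767 CPM (SD, n = 6) late to 1.28 ± 0.250 CPM early, and its difference between gels was 0.26 (95% interval -0.41 to 0.94, adjusted p = 0.956).

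*Prdm14* encodes a zinc finger protein that restores pluripotency genes and lowers DNA methylation in germ cells, and that also keeps embryonic stem cells in the naive state. It lies on the minus strand of chromosome 1, from 13113457 to 13127163. It was counted at 1, 2 and 2 reads in the libraries embedded early in 1.0 mM gels, and at 18, 11 and 14 reads in those embedded late. The summed 5 reads have an exact 95% Poisson interval of 1.62 to 11.7, and the summed 43 reads one of 31.1 to 57.9, which cover counting error only. The log2 fold change was -2.89 (SE 0.526, 95% interval -4.05 to -1.74, edgeR adjusted p = 0.00603), in a gene that passed the filter on low counts only through its libraries embedded late. The denser gel gave counts of 8, 6 and 2 reads early and 25, 14 and 7 reads late, and the groups overlapped. A fit over all 12 libraries, in which the gene was tested, gave -1.34 for this contrast (SE 0.527, 95% interval -2.47 to -0.21, adjusted p = 0.0930). With gel as a covariate, the change across both gels was -1.94 (SE 0.431, edgeR adjusted p = 0.00361). There were 21 reads in the 6 libraries embedded early and 89 reads in the 6 embedded late. Here again, *Prdm14* passed the filter only through libraries embedded late. Its difference between gels was 1.56, with an interval from -0.34 to 3.46 that includes 0 (adjusted p = 0.953).

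Counting the genes whose libraries did not overlap gave 3 of 7 in 1.0 mM gels (*Prdm1*, *Prdm14* and *Tfap2c*), against 28% of all genes tested, or 2 of 6 without *Prdm14*. The same count gave 2 of 6 in 1.5 mM gels (*Prdm1* and *Tfap2c*), against 39.5%. Over both gels, 6 libraries against 6, *Prdm1* and *Tfap2c* kept apart, against 11.9% of all genes.

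**Figure D2:**
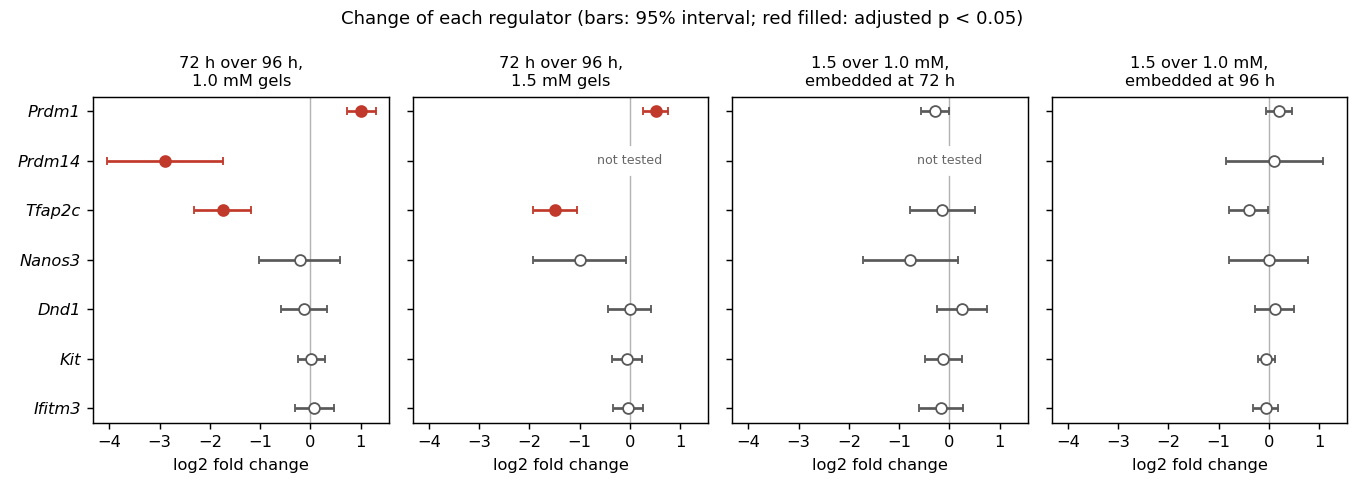
Log2 fold change (horizontal axes) of each regulator (rows) in the 4 comparisons of 3 with 3 libraries, with 95% intervals; red filled points have an adjusted p below 0.05 and open points do not. In the panels for embedding time, *Prdm1* is right of 0 (1.01 and 0.52) and *Tfap2c* left of 0 (-1.75 and -1.5), and no point is filled in the panels for gel density.

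*Nanos3* encodes an RNA-binding protein that protects migrating germ cells from cell death. It lies on the minus strand of chromosome 8, from 84173733 to 84176552. In 1.0 mM gels it was counted at 24, 14 and 14 reads after early embedding and at 29, 15 and 22 reads late. The denser gel gave 8, 14 and 7 reads early and 27, 13 and 25 reads late. The groups overlapped in both gels. The log2 fold change was -0.21 in 1.0 mM gels (95% interval -1.02 to 0.59, edgeR adjusted p = 0.779) and -1.0 in 1.5 mM gels (95% interval -1.93 to -0.07 before adjustment, adjusted p = 0.117). Both intervals include changes of 2-fold, at counts of 7 to 29 a library.

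*Dnd1* encodes the partner of NANOS proteins that recruits the CCR4-NOT deadenylase to mRNA, and its loss in the Ter mouse removes germ cells. It lies on the minus strand of chromosome 18, from 36763673 to 36766198, and 140 bases of its exons (5.80%) overlap an exon of *Wdr55* on the other strand. Since the strand setting of the counts is not stated, reads from this stretch could belong to either gene. Counts were 100, 109 and 68 reads early and 119, 96 and 116 reads late in 1.0 mM gels, and 121, 93 and 104 reads against 124, 133 and 96 reads in 1.5 mM gels. All 4 groups overlapped. The change with embedding time across both gels was -0.07 (95% interval -0.36 to 0.22, edgeR adjusted p = 0.738).

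*Kit*, on the plus strand of chromosome 5 from 75574916 to 75656722, encodes the receptor tyrosine kinase that germ cells share with melanoblasts and blood progenitors. Its level was 68.8, 47.3 and 55.6 CPM after early embedding and 58.6, 51.8 and 58.7 CPM late in 1.0 mM gels. In the denser gel it was 63.4, 41.9 and 52.5 CPM early and 54.8, 50.8 and 58.3 CPM late. Embedding early gave the wider spread in either gel, with SDs of 10.8 and 10.8 CPM against 3.94 and 3.78 CPM late, a difference that was not tested. The change across both gels was -0.02 on the log2 scale (95% interval -0.23 to 0.19, edgeR adjusted p = 0.896), the narrowest interval of the 7 genes. Of the other lineages known for KIT, the melanoblast and neural crest markers *Sox10* and *Dct*, and *Klf1*, *Hbb-bh1*, *Hba-x* and *Hbb-y* of primitive blood, had fewer than 10 counts in every library. Other markers of these lists were detected. In 1.0 mM gels *Tal1* of the blood list had means of 36.0 CPM early and 20.1 CPM late, and *Itga2b* 7.86 and 8.82 CPM. *Mitf* of the neural crest list had 3.70 CPM early and 3.28 CPM late. The whole primitive blood list summed to 42.8 to 53.0 CPM early and 31.2 to 34.8 CPM late in 1.0 mM gels, and overlapped in 1.5 mM gels at 41.3 to 60.7 CPM against 37.3 to 42.2 CPM. The neural crest list summed to 10.0 to 12.5 CPM against 6.76 to 11.1 CPM in 1.0 mM gels, and to 7.59 to 15.4 CPM against 7.41 to 10.1 CPM in 1.5 mM gels.

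*Ifitm3* encodes a small membrane protein that is induced by interferon as well as in early germ cells. It lies on the minus strand of chromosome 7, from 141009586 to 141010770, and 4 of the 604 windows of 75 bases in its transcript (0.662%) also occur in *Gm7676*, while none occur in another *Ifitm* gene. Its levels were 11.0, 17.3 and 11.5 CPM early against 12.6, 13.6 and 11.5 CPM late in 1.0 mM gels. In the denser gel they were 13.7, 11.5 and 10.2 CPM against 11.0, 12.5 and 12.9 CPM. All groups overlapped, and the change across both gels was 0.02 (95% interval -0.22 to 0.26, edgeR adjusted p = 0.910). Its neighbours *Ifitm1* and *Ifitm2* were far more abundant per length. They had 298 and 345 FPKM after early embedding in 1.0 mM gels, against 15.0 FPKM for *Ifitm3*.

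Gel density was compared at each embedding time. Between 1.5 mM and 1.0 mM gels, 0 of the 6 genes tested early and 0 of 7 late were called by edgeR, against 0% of all genes early and 0% late. Unadjusted, p fell below 0.05 for 1074 genes early and 1578 genes late, and in these fits *Tfap2c*, late, was the only 1 of the 7 regulators. *Tfap2c* was lower in 1.5 mM gels late by 0.40 on the log2 scale, from 4.53 ± 0.751 to 3.44 ± 0.166 CPM (SD, n = 3 each). Its libraries did not overlap, as was the case for 15.1% of all genes, and its edgeR adjusted p was 0.487 (0.308 to 0.839 over the alternatives). DESeq2, which called 12 genes of all early and 87 late, and limma-voom, which called 0 and 2, also called 0 of the 7 in either comparison. With a block for replicate number, edgeR called 43 genes of all early and 289 late, and again 0 of the 7.

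At 72 h, 0 of the 6 genes tested were free of overlap between gels, against 11% of all genes. The *Prdm1* level was 81.6 ± 14.5 CPM in the 1.0 mM libraries, against 67.0 ± 5.53 CPM in the denser gel (SD, n = 3 each), a log2 fold change of -0.28 (95% interval -0.56 to 0.00, edgeR adjusted p = 0.704). *Prdm14*, tested only in the fit over all 12 libraries, had a log2 fold change of 1.67 between these gels, from 5 to 16 summed reads (adjusted p = 0.466). Across both embedding times, 0 of 7 genes were called between gels, against 0.0305% of all genes, and 2075 genes had an unadjusted p below 0.05. The test of whether the effect of embedding time differed between gels called 0 of 7, against 0% of all genes, with 708 genes at an unadjusted p below 0.05 and 2 of all genes, none of them a regulator, called by DESeq2.

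The genes that surround these regulators were grouped by role. The inducing signals and the genes that gate the response to them numbered 12, of which 10 were tested. Among all genes tested, 5.97% were called higher and 3.27% lower in 1.0 mM gels, and 10.4% and 8.98% in 1.5 mM gels. In 1.0 mM gels 3 rose after early embedding and 0 fell, with a list median of 0.22 against -0.01 for all genes. These were *Bmp4* (log2 fold change 1.26, edgeR adjusted p = 0.0400) and *Bmp2* (1.13, adjusted p = 0.00681), the ligands that start germ cell fate in the epiblast, and *T*, a mesodermal factor that relays WNT signals to *Prdm1* and *Prdm14*. With the denser gel 4 rose and 0 fell, with a median of 0.39. *Bmp2* (0.95, edgeR adjusted p = 0.0162) and *T* were again among them, with the receptor *Bmpr1a* (0.36, adjusted p = 0.0123) and its effector *Smad4* (0.19, adjusted p = 0.0414). *Bmp8b* and *Wnt3a* had fewer than 10 counts in every library.

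Genes that germ cells share with pluripotent cells moved mostly the other way. Of 14 tested in 1.0 mM gels, 10 fell after early embedding and 2 rose, with a median of -1.51. Of all genes tested there, 3.27% fell and 5.97% rose. *Dppa2* had 5 to 6 reads in the early and 52 to 63 in the late 1.0 mM libraries, and passed the filter on low counts only through the late ones (log2 fold change -3.31, edgeR adjusted p = 1.61e-04). On the log2 scale, *Dppa5a* decreased by 2.71 (edgeR adjusted p = 2.00e-05), *Zfp42* (REX1) decreased by 2.50 (adjusted p = 2.70e-04) and *Utf1* decreased by 2.27 (adjusted p = 8.66e-05). The 2 that rose, named for that reason, were *Lin28a* by 0.36 (adjusted p = 0.0346) and *Sall4* by 0.32 (adjusted p = 0.0161). *Lin28a* and *Sall4* also rose in the 1.5 mM gels, by 0.42 and 0.41 (edgeR adjusted p = 0.0173 and 0.00435). In those gels 9 of 14 tested fell, beside 8.98% of all genes, and the median was -1.14. *Lin28a* and *Sall4* were the most abundant of the 6 genes named here, at 437 ± 45.5 and 204 ± 3.87 CPM (SD, n = 3) after early embedding in 1.0 mM gels, so the summed level of the list hardly moved. It was 670 to 742 CPM early and 688 to 733 CPM late in 1.0 mM gels. *Dppa3* (Stella), a marker of established germ cells and of naive stem cells, was at 0.0834 ± 0.0724 CPM early and 0.903 ± 0.437 CPM late in 1.0 mM gels. The groups of *Dppa3* did not overlap there, at 0.0409 to 0.167 CPM against 0.403 to 1.21 CPM, as was the case for 28% of all genes tested. *Dppa3* did not pass the filter on low counts in these gels, and was not tested.

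Later germline genes, which are switched on as germ cells reach the gonad or enter meiosis, were close to the floor. Their summed level over 16 genes was 7.81 to 9.98 CPM early and 18.2 to 22.7 CPM late in 1.0 mM gels. With the denser gel it was 7.72 to 8.34 CPM against 13.4 to 15.8 CPM. In 1.0 mM gels *Tex19.1*, with means of 1.32 CPM early and 5.55 CPM late, and *Tdrd12*, with 2.05 and 4.72 CPM, made most of the difference. *Tdrd1* had 1.36 CPM early and 1.50 CPM late there, and *Brdt* 1.39 and 1.53 CPM. Of 9 tested in 1.0 mM gels 4 fell after early embedding and 0 rose (median -0.98). Of 7 in 1.5 mM gels 3 fell and 0 rose (median -0.83). The shares of all genes that fell were 3.27% in 1.0 mM and 8.98% in 1.5 mM gels. In the comparisons of gels, 6 genes of this list passed the filter on low counts early and 13 late. The filter thus let in genes that were higher late, and these counts and medians lean that way. *Tex19.1*, a guard against retrotransposons that embryonic stem cells express too, fell by 2.07 in 1.0 mM gels (edgeR adjusted p = 7.74e-04). *Hormad1*, a meiotic chromosome protein, had 0 to 7 reads early and 22 to 28 late in these gels, and passed the filter only through the late libraries (-3.10, adjusted p = 0.0116). *Mael*, at 0 to 6 reads early and 14 to 17 late, passed it only through the late libraries too. With a filter of 1 CPM in 3 libraries, 2 of the list were called in place of 4. The defining germ cell genes *Ddx4* and *Dazl* were at 0.751 ± 0.339 and 0.294 ± 0.0808 CPM (SD, n = 3) in the 1.0 mM gels embedded late, and at 0.596 ± 0.272 and 0.139 ± 0.105 CPM early. In the denser gel *Dazl* was at 0.0864 ± 0.0893 CPM early and 0.385 ± 0.139 CPM late, and *Ddx4* at 0.659 ± 0.336 and 0.650 ± 0.290 CPM. *Dazl* had 0 to 6 reads in each early library and 6 to 14 in each late one. *Sycp1* and *Taf7l* had fewer than 10 counts in every library. The regulators were measured in whole gastruloids, and the share of any of them that came from germ cells was not tested.

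**Figure D3:**
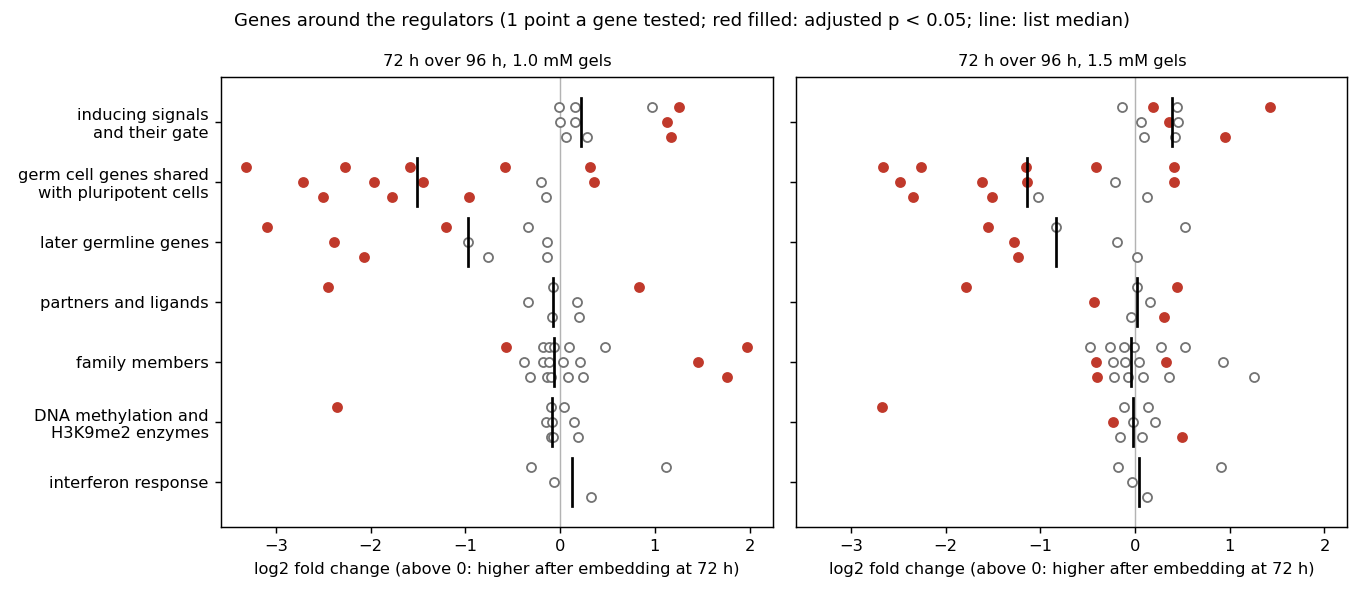
Log2 fold change between embedding times (horizontal axes; right of 0 is higher after early embedding) of each gene tested in the 7 lists around the regulators (rows), in 1.0 mM gels on the left and 1.5 mM gels on the right; red filled points have an adjusted p below 0.05, and black lines are list medians. The genes shared with pluripotent cells lie mostly left of 0 (medians -1.51 and -1.14), and the inducing signals have medians of 0.22 and 0.39.

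Partners and ligands of the 7 genes were all tested. The chemokine *Cxcl12*, which guides migrating germ cells, fell after early embedding, by 2.45 (log2) in the 1.0 mM libraries and by 1.78 in the others (edgeR adjusted p = 2.70e-04 and 0.00164). Its receptor *Cxcr4* rose by 0.83 and 0.44 (adjusted p = 0.00435 and 0.0386). The KIT ligand *Kitl* was at 42.1 ± 8.94 CPM early and 53.1 ± 6.69 CPM late in 1.0 mM gels, which was not called, and fell by 0.43 in 1.5 mM gels (adjusted p = 0.0213). In total 1 gene of 7 rose and 1 fell in the 1.0 mM gels, beside 9.24% of all genes called in either direction. In the 1.5 mM gels 2 rose and 2 fell, beside 19.3% of all genes called. The second riser there was *Cnot1* of the CCR4-NOT complex (0.30, edgeR adjusted p = 0.0153). *Prmt5* and *Cbfa2t2*, the partners of BLIMP1 and PRDM14, were not called in either gel.

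Among 29 relatives of the 7 genes, 19 were tested in 1.0 mM gels, where 3 rose and 1 fell (4 of 19, beside 9.24% of all genes), with a median of -0.07. The risers were *Prdm6* (log2 fold change 1.77, edgeR adjusted p = 0.0144), *Ifitm10* (1.98, adjusted p = 0.00888) and *Tfap2a* (1.46, adjusted p = 0.0131). *Ifitm10* had 22 to 43 reads early and 7 to 12 late there, and passed the filter on low counts only through the early libraries. *Tfap2a*, the AP2α gene of neural crest and surface ectoderm, thus moved opposite to *Tfap2c* in 1.0 mM gels. The receptor *Pdgfrb*, of the same kinase family as *Kit*, fell by 0.57 in 1.0 mM and 0.41 in 1.5 mM gels (adjusted p = 0.00634 and 0.00493). In 1.5 mM gels 1 of 18 relatives tested rose, *Prdm2* (0.33, adjusted p = 0.0457), and 2 fell, a share below the 19.3% of all genes. Of the other *Prdm* genes *Prdm12* and *Prdm13*, of the AP2 genes *Tfap2b*, *Tfap2d* and *Tfap2e*, and of the receptors *Csf1r* and *Flt3* had fewer than 10 counts in every library.

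Germ cells lose DNA methylation and H3K9 dimethylation, and of 9 enzymes of these marks 1 fell and 0 rose after early embedding in 1.0 mM gels, near the 9.24% of all genes. It was *Dnmt3l*, the cofactor of de novo methylation, with log2 fold changes of -2.36 (edgeR adjusted p = 0.00365) and, in 1.5 mM gels, -2.67 (adjusted p = 0.00442). *Dnmt3l* had 6 to 12 reads early and 32 to 61 late in 1.0 mM gels, and 3 to 7 early and 26 to 40 late in the denser gel. In either gel it passed the filter only through the late libraries. Also in 1.5 mM gels, *Ehmt2* fell by 0.24 (adjusted p = 0.0156) and *Tet1* rose by 0.50 (adjusted p = 0.0117). Of the 9 enzymes 1 rose and 2 fell in these gels, beside 19.3% of all genes called. The interferon-responsive genes, with which *Ifitm3* is often read, were few: 4 of 12 were tested in either gel and 0 were called. Across both gels 5 were tested and 1 was called, *Usp18*, which rose (1.01, edgeR adjusted p = 0.0137). Of all genes, 31.1% were called across both gels, and 16.2% were higher. *Isg15*, *Ifit1*, *Ifit3*, *Irf7* and *Xaf1* had fewer than 10 counts in every library. In the comparisons of gel density and in the test of the difference between gels, 0 genes of these 7 lists were called by edgeR without a replicate block. Between gels at late embedding, DESeq2 called 2 of the genes shared with pluripotent cells, 1 inducing signal and 1 later germline gene.

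Markers of cell types that also use the called regulators moved with embedding time. Definitive endoderm, which makes BLIMP1, had 3 of 7 genes higher after early embedding in 1.0 mM gels and 0 lower. The shares of all genes called higher were 5.97% in 1.0 mM and 10.4% in 1.5 mM gels. In 1.0 mM gels *Gata6* led with a log2 fold change of 1.60 (edgeR adjusted p = 7.05e-05), and *Foxa2* had 0.61 (adjusted p = 0.0499). In 1.5 mM gels 3 of the 7 rose and *Sox17* fell by 0.53 (adjusted p = 0.0372). The summed endoderm level was 229 to 317 CPM early and 155 to 161 CPM late in 1.0 mM gels, and 250 to 318 CPM against 134 to 204 CPM in 1.5 mM gels. These sums separated the embedding times in the same direction as *Prdm1*, and their part in its change was not tested. *Gata6*, with 104 ± 6.09 CPM early and 34.2 ± 6.51 CPM late in 1.0 mM gels, and *Cer1*, with 58.0 ± 41.4 against 35.3 ± 8.08 CPM, made most of the difference, while *Sox17* was at 20.6 to 30.5 against 26.1 to 30.4 CPM. The list median was 0.61 in 1.0 mM and 0.10 in 1.5 mM gels. For *Tfap2c*, 2 of the 7 markers of surface ectoderm and trophoblast were tested, and *Hand1*, which cardiac and lateral mesoderm use as well, was called in 1.0 mM gels (2.15, adjusted p = 0.0352). The sum of this list was 81.0 to 215 CPM early and 9.68 to 45.4 CPM late in the 1.0 mM gels, and overlapped in the 1.5 mM gels at 59.1 to 136 CPM against 47.7 to 112 CPM. Most of it was *Hand1* alone, at 119 ± 72.4 CPM early and 26.9 ± 18.7 CPM late in 1.0 mM gels. *Elf5*, *Trp63*, *Krt5* and *Krt14* of that list had fewer than 10 counts in every library.

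Somite markers moved with *Tfap2c* and *Prdm14*. All 5 of the 6 that were tested fell after early embedding in 1.0 mM gels (median -1.51), and 3 of them in 1.5 mM gels (median -0.55). The shares of all genes that fell were 3.27% in 1.0 mM and 8.98% in 1.5 mM gels. Their sum was 205 to 389 CPM early and 708 to 834 CPM late in 1.0 mM gels. Of the posterior axis markers 6 were tested in 1.0 mM gels, where *T* rose and *Cdx1*, *Nkx1-2* and *Hoxb9* fell, and of 5 tested in 1.5 mM gels *T* rose and *Hoxb9* fell. The genes that fell here passed the filter through their late libraries. Of 7 endothelial markers, *Kdr* rose (0.46, edgeR adjusted p = 0.0320) and *Esam* fell in 1.0 mM gels, and 0 rose and *Emcn* fell in the other gels. Primitive blood had *Tal1* higher in both gels (0.83 and 0.69, adjusted p = 0.00106 and 0.0182), and in 1.5 mM gels *Gata1* higher (1.93, adjusted p = 0.0263) and *Itga2b* lower (-0.64, adjusted p = 0.0261). *Gata1* had 10 to 19 reads early in 1.5 mM gels, and passed the filter on low counts only through those early libraries. The part of these cell types in the values of the regulators was not tested.

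**Figure D4:**
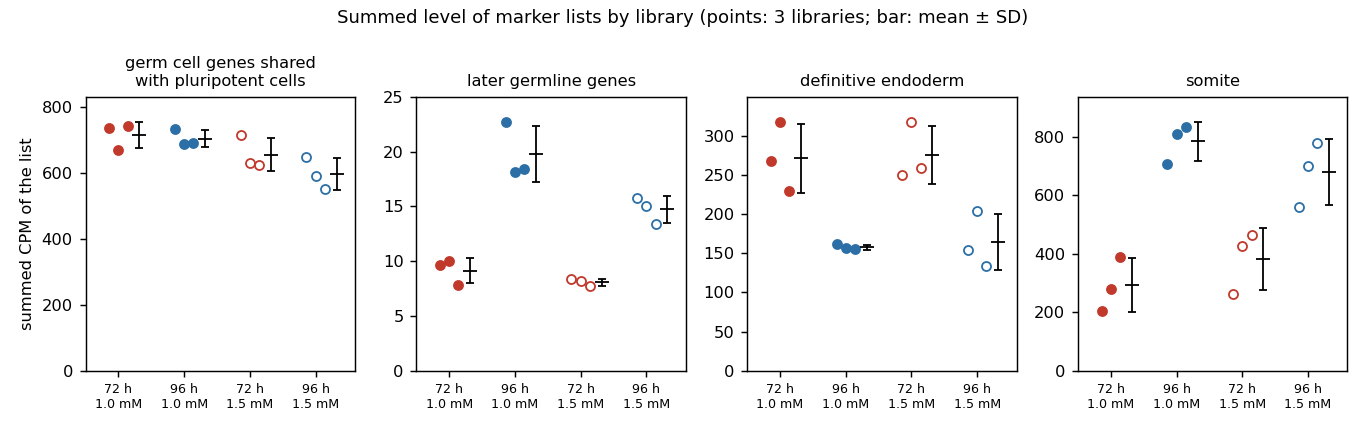
Summed CPM (vertical axes, each starting at 0) of 4 lists in every library, by embedding time and gel (horizontal axes); points are libraries, and bars give the mean ± SD of 3. Later germline genes are lower in sum after early embedding (7.81 to 9.98 CPM in 1.0 mM gels) than late (18.2 to 22.7 CPM), mostly through *Tex19.1* and *Tdrd12*. Somite markers go the same way, endoderm markers go the opposite way, and the genes shared with pluripotent cells overlap in sum in 1.0 mM gels.

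For each called regulator, the genes whose pattern over the 12 libraries was most like its own were found among 13804 others (13805 for *Prdm14*), by the root mean square difference of centred log2 CPM. For *Prdm1* they were *Lrrc8c*, *Tspan7* and *Trp53inp2*, with differences of 0.163, 0.164 and 0.168 where its own SD was 0.431. For *Tfap2c* the closest were *Dppa4* and *L1td1*, with differences of 0.183 and 0.203 against an own SD of 0.824. *Dppa4* and *L1td1* are known from pluripotent cells, and *Dppa4* fell after early embedding by 1.77 in 1.0 mM and 1.61 in 1.5 mM gels. For *Prdm14*, *AU018091*, *Zfp988* and *Dnah8* were at 0.451, 0.466 and 0.526 against an own SD of 0.971, so the likeness was looser, at counts of 1 to 25 reads. These are descriptions over libraries that share the division by embedding time, and carry no test.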

How the data were processed

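Bulk RNA-seq of 12 libraries (4 groups of 3) was analysed from 2 deposited tables. The authors prepared stranded poly-A libraries with paired reads of 75 bases, trimmed them with cutadapt 4.4 and aligned them with STAR 2.7.10b to mm10, using a gene annotation customized from Ensembl. The values deposited are raw counts. The methods name STAR as the source of the counts and the table's name HTSeq; the strand setting is not given in the sources used here. The deposited FPKM values were made by the authors with Cufflinks 2.2.1.3. Another table, holding the authors' fold changes and adjusted p-values, was not used.

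The 7 genes and all lists were chosen with earlier results of these data known. They were matched by symbol and taken from the counts by Ensembl ID. Counts without the 36 mitochondrial genes were normalized with TMM, filtered with filterByExpr (minimum count 10, minimum total 15) and tested with edgeR 4.0.16 (glmQLFit, glmQLFTest; R 4.3.3). Pairwise fits used 6 libraries; gel and embedding time across the other factor, and their interaction, used 12. The comparisons of embedding time and of gel share libraries. Intervals are 95%. Named genes are the 7, list genes called in a comparison (at most 4 a list and comparison, by size), relatives and undetected markers. *Dppa3*, *Ddx4*, *Dazl*, *Mael*, *Tdrd1*, *Tdrd12*, *Brdt*, *Kitl*, *Lin28a*, *Sall4*, *Prmt5*, *Cbfa2t2* and *Mitf* were named after their values were seen.

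Totals of 23011791 to 27609422 counts were the depth of the libraries, and intervals of summed counts cover counting error only. Replicates of a group differed by more than sampling noise (chi-squared per degree of freedom 10.2 to 125). Coordinates are mm10; the table's starts, which count from 0, were raised by 1, after which 96.42% of 54801 genes started where GENCODE M21 places them. Alternatives were DESeq2 1.42.0, limma-voom (limma 3.58.1), RLE, no filter or 1 CPM in 3 libraries, mitochondrial genes kept, a replicate block, 1 fit over all 12 libraries, stricter thresholds, limma on log2(FPKM + 0.1) or log2(FPKM + 1) with a mean of at least 0.1 FPKM or unfiltered, and each library left out. The scripts were tested on simulated data. Single results on a relative and on a gene of like pattern are not reported here. Figures were drawn with matplotlib.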

Additional observations from a re-analysis of the deposited data

How the results depend on the processing

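Settings other than those reported left 2 or 3 of the 7 genes called between embedding times in 1.0 mM gels and across gels, and 3 with any library left out. In 1.5 mM gels 1 gene was called under limma on log2(FPKM + 0.1), filtered or not, and log2(FPKM + 1), at an adjusted p below 0.01, and with an absolute log2 fold change above 1, and 1 to 2 with a library left out. Without a filter on low counts, 1 gene (*Prdm1*) was called for the difference between gels. *Prdm1*, *Prdm14* and *Tfap2c* kept the direction of their called changes under all alternatives run. *Tfap2c* in 1.0 mM gels lost its call under log2(FPKM + 0.1) without a filter (-1.55, adjusted p = 0.0512). The larger pseudocount of log2(FPKM + 1) brought that change to -0.70. With the replicate block, *Dnd1* in 1.5 mM gels came to 0.00141 (0.000496 in 1 fit over all 12 libraries). The block changed no call among the 7 genes in any comparison. In the lists, it called 5 inducing signals in place of 3 and 7 relatives in place of 4 between times in 1.0 mM gels, 6 relatives in place of 3 in 1.5 mM gels, 8 later germline genes in place of 5 across gels, and 3 genes shared with pluripotent cells in place of 0 between gels, late. Among all genes it raised the calls between gels from 0 to 43 early and from 0 to 289 late. Without a filter on low counts, 2283 genes in place of 1457 were called between times in 1.0 mM gels. Libraries with the same replicate number correlated in their deviations with r of 0.0364 to 0.313, above 0.1 in 13 of 18 pairs, and 12 of 12 were closest to their own number, a hint from the data and not the design.

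The other reversals were of log2 fold changes that were not called. Under the FPKM fits, in the order log2(FPKM + 0.1), log2(FPKM + 1) and unfiltered, *Kit* between times in 1.0 mM gels was -0.0183, -0.0152 and -0.0183, *Ifitm3* between times across gels -0.0185, -0.0167 and -0.0185, *Nanos3* in the difference between gels 0.243, 0.0953 and 0.243, and *Prdm14* between gels, late, -0.198, -0.0324 and -0.198 (-0.0310 with limma-voom). The cause was not tested. With each library left out in turn, the change with time in 1.0 mM gels ranged from -0.535 to 0.0315 for *Nanos3*, -0.253 to 0.0454 for *Dnd1*, -0.135 to 0.138 for *Kit* and -0.160 to 0.197 for *Ifitm3*. In 1.5 mM gels it ranged from -0.137 to 0.121 for *Dnd1*, -0.211 to 0.0849 for *Kit* and -0.157 to 0.0560 for *Ifitm3*, and across gels from -0.140 to 0.0195, -0.0908 to 0.0457 and -0.0924 to 0.0684 for these genes. Between gels, early, it ranged from -0.351 to 0.0232 for *Tfap2c*, -0.279 to 0.0355 for *Kit* and -0.290 to 0.0674 for *Ifitm3*. Late, it ranged from -0.384 to 0.451 for *Prdm14*, -0.190 to 0.241 for *Nanos3*, -0.0111 to 0.239 for *Dnd1* and -0.119 to 0.0152 for *Ifitm3*. Across times, *Prdm1* ranged from -0.122 to 0.0415. The difference between gels ranged from -0.0490 to 0.251 for *Dnd1*, -0.239 to 0.0890 for *Kit* and -0.245 to 0.124 for *Ifitm3*. *Prdm14* and *Nanos3* rest on 1 to 29 reads a library.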
